A study of Mus musculus with 12 samples.

Results

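The effect of raised Fgf8 on the developing palate at embryonic day 14.5 (E14.5) was described from 6 RNA sequencing libraries of mouse anterior palate, 3 from Shox2Cre; R26RFgf8 mutants and 3 from controls, out of 12 libraries in the series. The libraries were chosen by their titles alone, so no measured value entered the choice. The other 6 libraries hold the same 2 genotypes at E16.5 and are used here only to show where the E14.5 effect differs. Every library is labelled as strain C57BL/6. In the mutants, Cre recombinase expressed under the control of Shox2, a transcription factor gene of the anterior palate mesenchyme, switches on an Fgf8 transgene at the Rosa26 locus. Only cells with a history of Shox2 expression can therefore carry the active transgene, while the dissected tissue also holds epithelium, vessels, nerves and blood. The controls are labelled wild type, and the labels do not say whether any of them carried the Cre or the silent transgene alone. They also do not say whether a library is 1 embryo or a pool, so each p-value measures the spread between libraries of unstated origin.

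FGF8 is a secreted growth factor of the facial primordia. It binds FGF receptors together with heparan sulphate and signals through RAS and the ERK cascade. The pathway switches on ETS transcription factors such as Etv4 and Etv5 and its own inhibitors, among them the Sprouty proteins. The bone of the hard palate forms directly from mesenchyme, without a cartilage template. Mesenchymal cells condense and express Runx2 and then Sp7, the transcription factors that commit them to the osteoblast fate. They then lay down type I collagen, add acidic glycoproteins such as bone sialoprotein and osteopontin, and mineralise the matrix with the help of alkaline phosphatase.

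The E14.5 libraries held 78168839 to 125996587 counts, and their 10 most abundant genes took 3.98 to 4.97% of each. Twist1, a transcription factor of cranial mesenchyme, was present at 248 to 293 CPM (counts scaled to library size with TMM factors) and Shox2 at 161 to 233 CPM over the 6 libraries. Both markers of palate mesenchyme were therefore present in every library; Twist1 was picked for this check after its values were seen. The log2 CPM of any 2 libraries correlated across the tested genes at 0.991 to 0.993 within a genotype and at 0.986 to 0.991 between genotypes, a description of these libraries in which genes are not independent replicates. The leading principal component, with 40.9% of the variance, separated the genotypes, with controls at -30.7, -11.2 and -24.5 and mutants at 24.98, 20.8 and 20.7. The next component, with 17.5%, set the libraries numbered 3 of both genotypes apart together, at -18.4 for the control and -18.3 for the mutant. In the libraries numbered 1 and 2 alone 845 genes were called, 680 of them among the calls below.

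The genotype effect at E14.5 was broad in the number of genes and mostly small in size. Of 16650 genes tested, 491 rose in the mutants, which is 2.95% of them, and 761 fell, which is 4.57%. Calls rest on edgeR's quasi-likelihood test, with p-values adjusted by Benjamini and Hochberg's method and a threshold of 0.05, and log2 fold changes are given as mutant minus control ± standard error with n = 3 libraries per group. The median change was 1.34-fold among the genes that rose and 1.37-fold among those that fell. A change of less than 1.5-fold accounted for 330 of the rises and 491 of the falls. Changes of at least 2-fold were found for 64 genes that rose and 115 that fell, and of at least 4-fold for 20 and 26. Genes of high level were called more often, from 1.30% of those at or under a log2 CPM of 0 to 14% of those above 8. The median log2 change over all tested genes was 0.012. Leaving out mutant 1 lowered the number of calls to 526, control 3 to 630, control 1 to 666 and mutant 2 to 673. A group of 164 rises and 309 falls was called in each of the 6 fits that left out 1 library. The control and mutant libraries did not overlap in 1250 of the 1252 called genes and in 4723 (28.4%) of all genes tested.

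**Figure D1:**
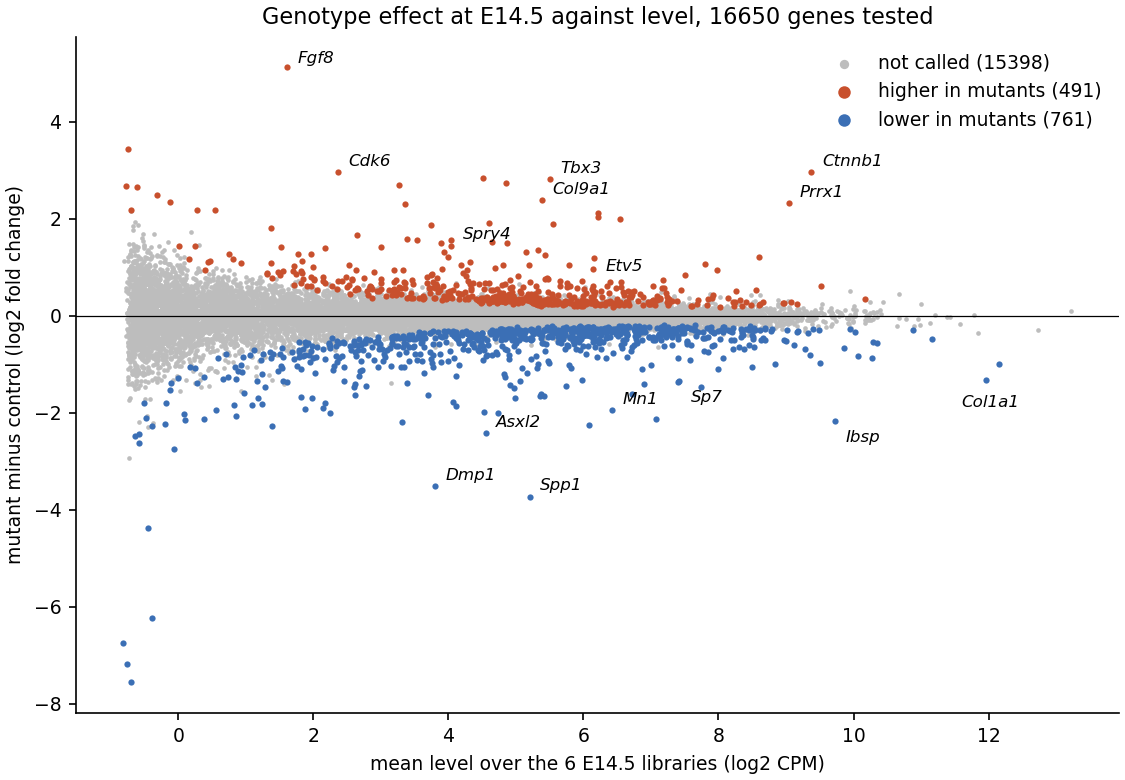
Each point is 1 of 16650 genes, with its mean level over the 6 E14.5 libraries on the x axis (log2 CPM) and its mutant minus control log2 fold change on the y axis. The 491 genes called higher are in red and the 761 called lower in blue, with Fgf8 at the top and Dmp1 and Spp1 among the lowest of the well-measured genes.

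Fgf8 itself was nearly silent in the controls, at 0.279, 0.251 and 0.431 CPM, and was read at 10.7, 11.2 and 10.9 CPM in the mutants. The 3 mutant libraries lay within a narrow range far above all controls, and the change was 34.9-fold (log2 5.12 ± 0.18, adjusted p = 3.93e-07). Counts are kept by gene symbol, so reads of the transgene and of the endogenous gene cannot be told apart. Shox2, whose control region drives the Cre, stood at 161, 188 and 195 CPM in the controls and 201, 213 and 233 CPM in the mutants. Its mutant libraries were all above the controls, but the difference did not pass edgeR's test (log2 0.25 ± 0.081, adjusted p = 0.096; 0.0469 by DESeq2 and 0.0137 in edgeR with a term for the libraries numbered 3).

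Several osteoblast transcription factors fell in the mutants. Of 17 tested, 9 fell and 0 rose, with a median log2 change of -0.38. In these bulk samples, fewer cells of a type and less RNA per cell cannot be told apart. The genes that fell were Dlx3, Sp7, Tcf7, Zfp521, Dlx5, Runx2, Foxo1, Dlx6 and Nfatc1, of which 7 were called in each of the 6 fits without 1 library; Dlx6 and Nfatc1 were not, and 1 member rose without mutant 3. Sp7, which encodes osterix and acts downstream of Runx2, read 256, 216 and 345 CPM in the controls and 99.1, 119 and 105 CPM in the mutants. All mutant libraries lay below every control, with control 3 the highest of all, and the log2 change was -1.34 ± 0.15 (adjusted p = 0.000406). Dlx3, a homeobox gene of osteoblasts and teeth, fell from 57.3, 60.9 and 69.4 CPM to 26.8, 33.1 and 35.3 CPM (log2 -0.98 ± 0.11, adjusted p = 0.000375).

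Runx2 and Dlx5 were added to the named genes after their values were seen. Runx2, the factor without which no bone forms, was at 304, 260.4 and 332 CPM in the controls and 155, 175 and 203 CPM in the mutants. Its fall was smaller than that of Sp7, at a log2 change of -0.75 ± 0.11 (adjusted p = 0.00258), and the 2 groups did not overlap. Dlx5, a homeobox regulator of osteoblasts, read 48.8, 42.3 and 59.0 CPM in the controls against 23.9, 28.5 and 29.3 CPM in the mutants (log2 -0.88 ± 0.12, adjusted p = 0.00172). Tcf7, an effector of Wnt signalling in osteoblasts, fell by a log2 value of 0.68 and Zfp521, a zinc finger protein that restrains osteoblast maturation, by 0.53 (adjusted p = 0.000676 and 0.000764).

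Bone matrix proteins fell almost without exception. Of 21 tested, 19 fell and 0 rose, with a median log2 change of -1.41 against 0.012 over all genes, and 16 of the 19 were called in each fit without 1 library. Together they read 17821 to 21649 CPM in the controls and 8811 to 10214 CPM in the mutants. Ibsp, bone sialoprotein, a collagen-binding glycoprotein of mineralising bone, stood at 2032, 1633 and 1728 CPM in the controls and 437, 370.0 and 388 CPM in the mutants. The groups were far apart, with a 4.52-fold fall (log2 -2.18 ± 0.095, adjusted p = 1.63e-06). Spp1, osteopontin, read 89.0, 207 and 132 CPM in the controls and 16.7, 4.78 and 10.9 CPM in the mutants. The Spp1 controls varied widely among themselves, yet the lowest control was still far above the highest mutant, and the fall was 13.3-fold (log2 -3.73 ± 0.41, adjusted p = 0.000455). Dmp1, an acidic phosphoprotein of maturing osteoblasts and osteocytes, fell 11.4-fold from 37.0, 50.8 and 48.6 CPM to 5.27, 2.47 and 4.18 CPM (log2 -3.52 ± 0.23, adjusted p = 1.17e-05).

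These genes lie side by side on mouse chromosome 5, in the order Sparcl1, Dspp, Dmp1, Ibsp, Mepe, Spp1, Pkd2 along the protein-coding genes of RefSeq. Mepe, another phosphoglycoprotein of the same cluster, read 3.36, 1.54 and 2.67 CPM in the controls and 1.01, 0.687 and 0.823 CPM in the mutants (log2 -1.58 ± 0.30, adjusted p = 0.0112; adjusted p = 0.0543 without mutant 2). Dspp, the dentin phosphoprotein gene, read 0.351, 0.306 and 0.515 CPM against 0.126, 0.15 and 0 CPM, and did not pass the test (adjusted p = 0.0991). The outer neighbours, given after their values were seen, showed no such difference. Sparcl1 read 148, 129 and 135 CPM in the controls and 155, 143 and 143 CPM in the mutants (adjusted p = 0.414), and Pkd2 122, 113 and 122 and 123, 126 and 131 CPM (adjusted p = 0.378). Among the 7 genes of this stretch, the 4 that fell were the bone glycoprotein genes Dmp1, Ibsp, Mepe and Spp1.

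The 250 bases before the RefSeq start of the 4 bone genes of the cluster that fell are shown because they moved together and lie within a short stretch of the chromosome (GRCm38.p6, plus strand; the submitters' processing notes name mm9 for the counts, and no coordinate was converted). Capitals mark matches to TGTGGT, the core letters bound by RUNX factors, or to its reverse complement ACCACA; the search read both strands and no other motif was marked.
Dmp1, chr5:104197325-104197574: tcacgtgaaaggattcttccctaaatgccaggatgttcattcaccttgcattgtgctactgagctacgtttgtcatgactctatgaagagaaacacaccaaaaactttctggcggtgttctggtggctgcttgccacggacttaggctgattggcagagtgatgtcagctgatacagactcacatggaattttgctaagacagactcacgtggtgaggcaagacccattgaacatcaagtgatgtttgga
Ibsp, chr5:104299037-104299286: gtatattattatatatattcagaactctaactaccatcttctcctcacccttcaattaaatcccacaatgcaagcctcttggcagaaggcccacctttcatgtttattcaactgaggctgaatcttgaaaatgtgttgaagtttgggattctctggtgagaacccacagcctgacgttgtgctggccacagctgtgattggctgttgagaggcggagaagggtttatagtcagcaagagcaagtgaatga
Mepe, chr5:104325079-104325328: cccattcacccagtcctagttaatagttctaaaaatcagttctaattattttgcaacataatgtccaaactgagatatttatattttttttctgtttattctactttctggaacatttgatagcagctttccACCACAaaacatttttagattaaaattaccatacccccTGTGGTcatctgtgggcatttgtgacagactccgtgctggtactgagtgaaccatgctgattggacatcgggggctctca
Spp1, chr5:104434861-104435110: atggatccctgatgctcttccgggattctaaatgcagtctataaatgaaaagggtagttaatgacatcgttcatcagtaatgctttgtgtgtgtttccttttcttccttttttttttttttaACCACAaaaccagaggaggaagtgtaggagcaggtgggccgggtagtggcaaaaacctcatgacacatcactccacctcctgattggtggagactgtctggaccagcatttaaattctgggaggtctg
Mepe held 2 matches, Spp1 1, and Dmp1 and Ibsp 0, while 14.2% of 27025 promoters in the table held at least 1 in the same 250 bases. Dmp1 and Spp1 have 2 starts each in the table, of which 1 is shown. The letters say nothing on whether a factor binds there or in other windows.

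Among the other matrix proteins, the fibrillar collagens of bone were lower in every mutant library. Col1a1 and Col1a2 encode the chains of type I collagen, the main protein of bone. Col1a1 read 6472, 5226 and 7346 CPM in the controls and 2272, 2449 and 2951 CPM in the mutants, a 2.48-fold fall (log2 -1.31 ± 0.13, adjusted p = 0.000178). Col1a2 fell less, from 6745, 5781 and 6799 to 3051, 3204 and 3509 CPM (log2 -0.98 ± 0.081, adjusted p = 5.48e-05). Col22a1, a collagen of tissue junctions, fell 4.78-fold, from 171, 127 and 148 CPM to 35.7, 26.9 and 30.5 CPM (log2 -2.26 ± 0.12, adjusted p = 4.35e-06). Ifitm5, a membrane protein made by osteoblasts, fell from 87.9, 64.6 and 73.7 to 25.1, 22.1 and 24.4 CPM (log2 -1.66 ± 0.11, adjusted p = 1.17e-05). Sparc, osteonectin, a collagen-binding glycoprotein, read 1711, 1601 and 1722 CPM in the controls and 909, 902 and 953 CPM in the mutants (log2 -0.86 ± 0.058, adjusted p = 1.45e-05).

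Among genes of mineral deposition, several phosphatases and phosphate regulators fell. Of 17 mineralisation and phosphate genes tested, 8 fell, 1 rose and 8 were not called. In 9 of the 17 every mutant was below every control and in 3 above, patterns found in 2299 and 2424 of the 16650 genes tested. All 8 falls were called in every fit without 1 library, and the rise, of Slc20a1, was called in 0 of the 6. Alpl, tissue-nonspecific alkaline phosphatase, which frees phosphate for mineral, read 387, 348 and 384 CPM in the controls and 163, 184 and 179 CPM in the mutants (log2 -1.09 ± 0.068, adjusted p = 1.13e-05). Phospho1, a phosphatase that acts inside matrix vesicles, fell from 26.6, 18.5 and 20.6 to 7.03, 6.80 and 7.35 CPM (log2 -1.63 ± 0.13, adjusted p = 4.7e-05). Phex, a cell-surface endopeptidase of phosphate balance, fell 3.25-fold, from 65.1, 46.7 and 58.1 CPM to 18.5, 15.2 and 18.5 CPM (log2 -1.70 ± 0.12, adjusted p = 2.42e-05). Smpd3, a sphingomyelin phosphodiesterase needed for mineralisation, fell from 387, 305 and 368 to 121, 136 and 129 CPM (log2 -1.46 ± 0.089, adjusted p = 9.81e-06). In each of these 4 genes every control was above every mutant.

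**Figure D2:**
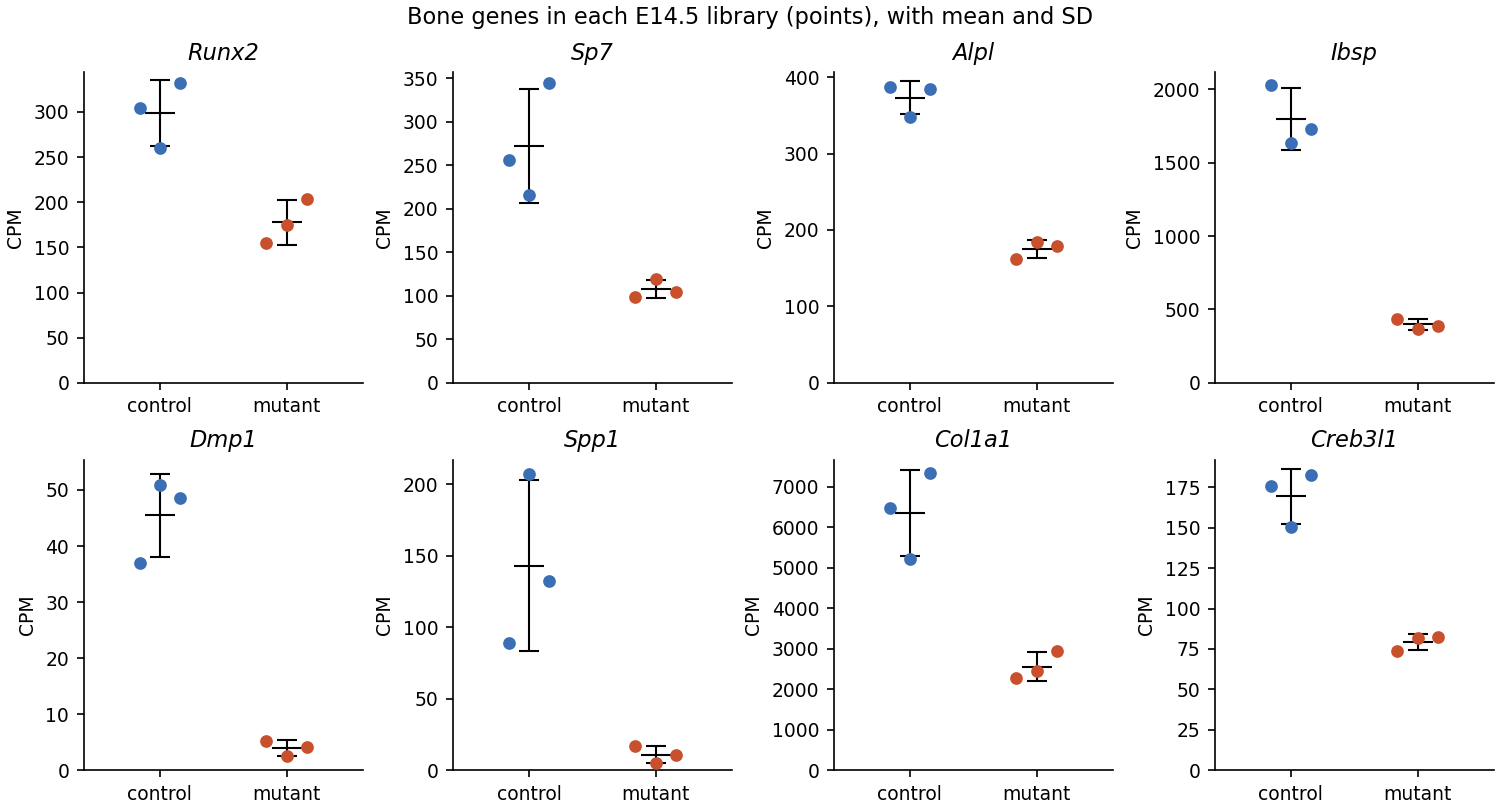
Each panel shows 1 bone gene, with CPM on the y axis from 0 and the 3 control and 3 mutant libraries at E14.5 as points; bars give mean and SD. The groups do not overlap in any panel, and the distance is widest in proportion for Dmp1 and Spp1 and narrowest for Runx2.

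Many enzymes that build and fold collagen fell as well. Of 34 collagen processing genes tested, 20 fell and 0 rose. The count was lower without the libraries whose loss also lowered the number of all calls. It was 9 without mutant 1, 10 without control 1, 12 without mutant 2 and 13 without control 3. In all 6 such fits 9 were called. Lox, the lysyl oxidase that cross-links collagen, read 522, 473 and 559 CPM in the controls and 230.0, 239 and 283 CPM in the mutants (log2 -1.05 ± 0.089, adjusted p = 7.11e-05). Its relative Loxl4 fell 3.97-fold, from 52.9, 38.8 and 43.5 to 11.996, 10.1 and 11.96 CPM (adjusted p = 9.22e-06). Fkbp10, a collagen-folding isomerase of the endoplasmic reticulum, fell from 313, 285 and 299 CPM to 193, 208 and 192 CPM (log2 -0.60 ± 0.06, adjusted p = 0.00023). Pcolce2, an enhancer of procollagen C-proteinase, fell from 29.3, 23.5 and 24.02 to 11.04, 10.8 and 10.9 CPM (log2 -1.23 ± 0.096, adjusted p = 4.22e-05).

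A minority of general secretory pathway genes fell. Of 40 genes for translocation, folding and vesicle traffic, 6 fell and 1 rose, with a median log2 change of -0.082. Over all tested genes 4.57% fell and 2.95% rose. At an unadjusted p under 0.05 by edgeR's test 13 of the 40 were lower and 1 higher, and DESeq2 called 8 falls and 1 rise. In all 6 fits without 1 library 2 of the falls and 0 rises were called, and 2 falls were left without control 1, mutant 1, mutant 2 or control 3. The largest of them was Creb3l1, a membrane-bound transcription factor of bone that switches on type I collagen. It read 176, 150.2 and 182 CPM in the controls and 73.8, 82.0 and 82.6 CPM in the mutants (log2 -1.09 ± 0.08, adjusted p = 2.62e-05). Kdelr3, a receptor that returns chaperones to the endoplasmic reticulum, fell from 99.7, 85.8 and 80.8 to 63.5, 68.6 and 58.9 CPM (log2 -0.48 ± 0.086, adjusted p = 0.00845). By the same test 20 of 34 collagen processing genes and 6 of 40 secretory genes fell, and the difference between the lists was not tested.

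Some genes of the bone-resorbing osteoclasts fell. Of 17 osteoclast genes tested, 8 fell, 0 rose and 9 were not called. Of the 8, 2 were called in all 6 fits without 1 library, and the count was 5 without control 1, control 2 or mutant 3, 4 without mutant 2 and 3 without mutant 1 or control 3. Mmp9, the gelatinase of osteoclasts, read 109, 113 and 117 CPM in the controls and 61.6, 70.7 and 66.9 CPM in the mutants (log2 -0.77 ± 0.064, adjusted p = 5.93e-05). Csf1, the growth factor that macrophages and osteoclasts need, fell from 52.0, 52.3 and 54.7 to 36.5, 41.2 and 40.5 CPM (log2 -0.43 ± 0.065, adjusted p = 0.00341). Among 13 osteocyte genes, 4 fell (Dmp1, Dkk1, Phex and Mepe) and 0 rose. Dkk1, a secreted inhibitor of Wnt signalling, fell from 50.3, 49.8 and 47.0 CPM to 21.8, 25.4 and 22.4 CPM (log2 -1.08 ± 0.074, adjusted p = 1.74e-05).

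Sprouty and ETS genes among the feedback genes of the FGF pathway rose. Of 21 genes tested, 7 rose, 1 fell and 13 were not called, with a median log2 change of 0.29; 6 of the rises were called in every fit without 1 library. They were Shisa2, Etv5, Spry4, Spry1, Spry2 and Etv4, while Spred2 was called in 0 of the 6. The fall, of Egr3, an immediate early gene, was not called without mutant 1, mutant 2 or control 3, and 2 members fell without control 1. Spry4, a Sprouty inhibitor of the receptor pathway, read 19.04, 20.7 and 26.7 CPM in the controls and 49.5, 53.3 and 63.7 CPM in the mutants (log2 1.33 ± 0.13, adjusted p = 0.00018). Etv5, an ETS factor that reads out FGF signalling, was at 42.7, 54.2 and 53.5 CPM against 94.3, 99.5 and 100.4 CPM (log2 0.97 ± 0.087, adjusted p = 0.000108). Shisa2, whose protein retains FGF and Wnt receptors inside the cell, rose from 49.8, 42.4 and 49.1 to 110.3, 100.01 and 112 CPM (log2 1.19 ± 0.076, adjusted p = 1.14e-05). Spry1 rose the least of the 4 named here, from 56.1, 57.3 and 58.8 to 82.2, 88.3 and 80.9 CPM (log2 0.55 ± 0.057, adjusted p = 0.000293). Fgf8 message, transgene and endogenous gene together, changed 34.9-fold and these readouts from 1.46-fold (Spry1) to 2.51-fold (Spry4).

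Few other genes of the pathway were called. Of 24 genes of the ERK cascade core, 0 rose and 0 fell by edgeR's test, with 1 lower at an unadjusted p under 0.05, 1 fall by DESeq2 and a median log2 change of -0.023. Among 12 FGF receptors and cofactors, 1 rose and 1 fell, and neither call was kept in all 6 fits without 1 library. The genes were Fgfbp1, an extracellular carrier of FGFs, and the receptor Fgfr3. The rise of Fgfbp1 was lost without control 1, mutant 1 or control 3 and joined by another without control 2, and the fall of Fgfr3 (log2 -0.42 ± 0.08, adjusted p = 0.0125) was lost without mutant 1 (adjusted p = 0.0649). Of 19 other genes of the FGF family, not all of them secreted ligands, 1 rose, 2 fell and 16 were not called, with a median log2 change of -0.29. Their summed level was 140.5 to 147.5 CPM in the controls and 121 to 127 CPM in the mutants, without overlap. Fgf18, a ligand that promotes osteoblast growth, fell from 8.68, 8.08 and 8.53 CPM to 5.67, 5.38 and 5.24 CPM (log2 -0.63 ± 0.1, adjusted p = 0.00405). Fgf14, an intracellular member of the family, rose from 2.46, 2.33 and 2.57 CPM to 4.17, 4.84 and 5.84 CPM (log2 1.01 ± 0.16, adjusted p = 0.00346). Fgf13, the other fall, is an intracellular member too. It read 38.4, 33.5 and 36.8 CPM in the controls and 29.1, 30.3 and 29.5 CPM in the mutants, and these values enter the sum. Its fall was lost without control 1, mutant 1, mutant 2 or control 3, and without control 2 the list had 4 falls.

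**Figure D3:**
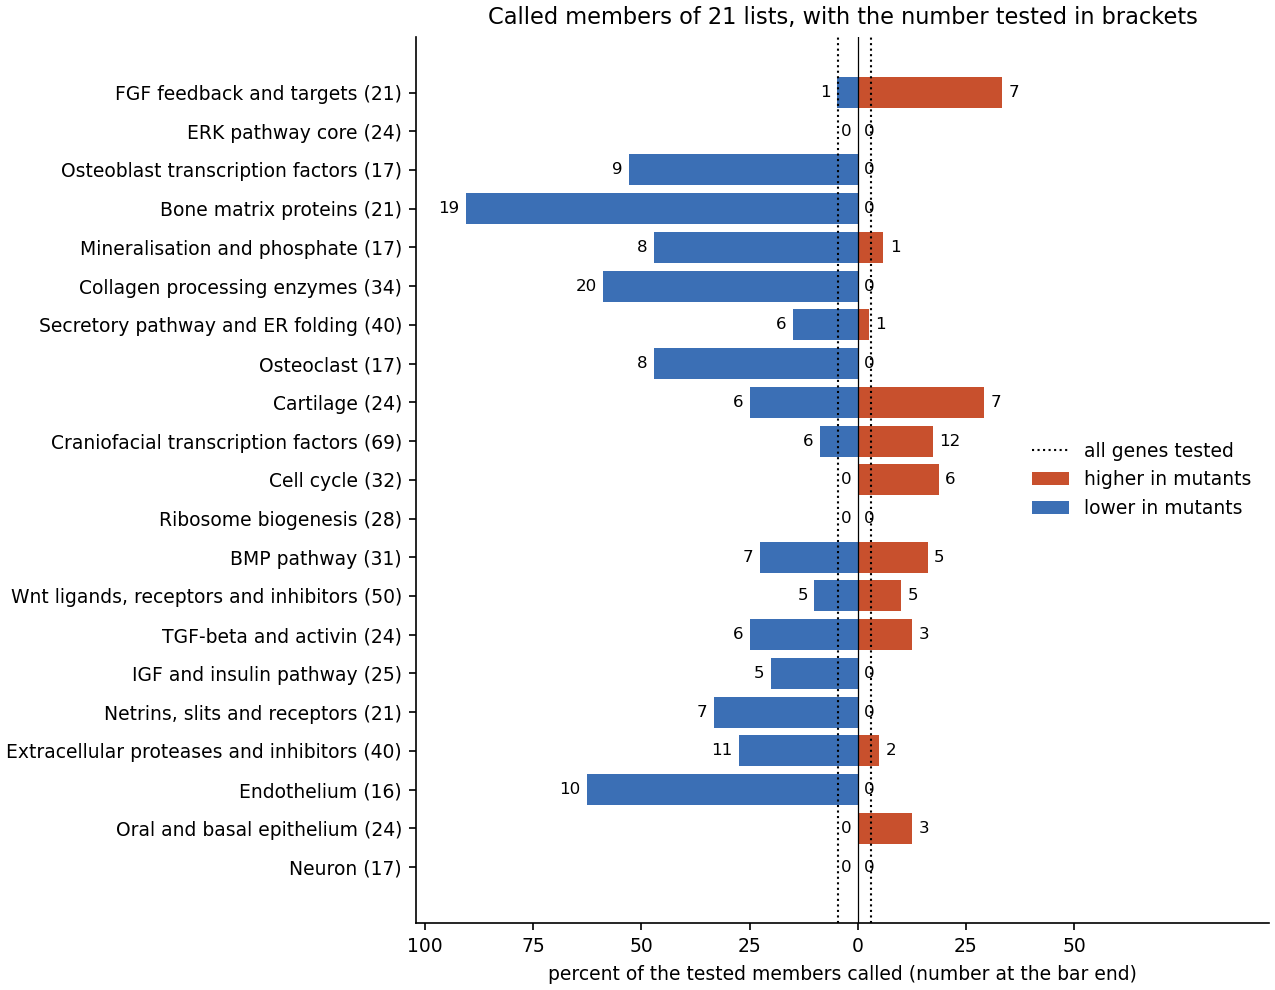
Bars give the percentage of tested members called higher (red, right) or lower (blue, left) in the mutants for 21 gene lists, with the number of calls at the bar end and the number tested in brackets. Dotted lines mark the 2.95% and 4.57% of all tested genes. Every list shown except ERK pathway core, ribosome biogenesis and neuron exceeds its line on the lower side, the higher side or both. The largest shares are those of bone matrix, endothelial, collagen processing and osteoblast genes on the lower side. On the higher side the largest is that of FGF feedback genes.

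Transcription factors that pattern the face changed in both directions. Of 69 tested, 12 rose and 6 fell, with a median log2 change of 0.062; 8 rises and 4 falls were called in every fit without 1 library, and the falls numbered 12 without control 2 and 10 without mutant 3. Prrx1, a paired-type homeobox gene of limb and facial mesenchyme, rose 5.03-fold, from 234, 204 and 269 CPM to 1094, 1127 and 1339 CPM (log2 2.33 ± 0.11, adjusted p = 2.4e-06). Dlx2, a homeobox gene of the neural crest of the jaws, rose from 7.83, 6.56 and 10.8 CPM to 51.2, 68.0 and 60.5 CPM (log2 2.84 ± 0.17, adjusted p = 9.22e-06). Tbx3, a T-box repressor, rose from 19.6, 12.96 and 18.4 to 106, 122 and 132 CPM (log2 2.83 ± 0.14, adjusted p = 3.06e-06). Dlx2 thus rose while its relatives Dlx3 and Dlx5 fell. Mn1, a transcriptional regulator needed for palate and skull bone, fell from 164, 146 and 191 CPM to 41.7, 46.3 and 42.9 CPM (log2 -1.94 ± 0.094, adjusted p = 2.43e-06). The forkhead genes Foxp1 and Foxp2 rose 6.69- and 4.93-fold (adjusted p = 1.14e-05 and 0.000286).

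Falls outside bone matrix included a chromatin regulator and a signal transducer. Asxl2, a Polycomb-associated protein known for a role in bone and heart, read 48.2, 53.6 and 56.3 CPM in the controls and 9.44, 10.7 and 9.37 CPM in the mutants. The 6 values formed 2 tight groups, and the fall was 5.35-fold (log2 -2.42 ± 0.087, adjusted p = 3.93e-07). Smad5, an effector of BMP signalling, fell from 270.3, 257 and 285 CPM to 108, 109.9 and 98.3 CPM (log2 -1.36 ± 0.065, adjusted p = 2.4e-06). Col11a2, a chain of type XI collagen, fell 4.37-fold, from 321, 239 and 284 to 60.6, 68.4 and 64.1 CPM (adjusted p = 2.4e-06). Other large falls were those of Adgrd1, an adhesion receptor (log2 -2.19 ± 0.15), Hrc, a calcium-binding protein (log2 -2.01 ± 0.11), Slc36a2, an amino acid transporter (log2 -2.01 ± 0.12), Chst13, a chondroitin sulphotransferase (log2 -1.91 ± 0.15), Lipi, a lipase (log2 -1.90 ± 0.17), and Cgref1 (log2 -1.85 ± 0.14). These 6 were picked among called genes without overlap between the groups, and their adjusted p ran from 3.89e-06 for Hrc to 9.3e-05 for Lipi. Mpo, the peroxidase of granulocytes and so a gene of blood cells, also fell, from 3.44, 4.91 and 5.45 CPM to 1.51, 0.287 and 1.07 CPM (adjusted p = 0.0102).

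Genes of growth control changed in both directions. Cdk6, a kinase that drives entry into the cell cycle, rose 7.84-fold, from 1.82, 1.53 and 1.38 CPM to 10.9, 11.3 and 14.9 CPM (log2 2.97 ± 0.16, adjusted p = 4.35e-06). Its relative Cdk4 rose from 318, 177 and 283 CPM to 538, 515 and 743 CPM, with control 2 the lowest and mutant 3 the highest (log2 1.21 ± 0.20, adjusted p = 0.00557). Myc, a transcription factor of growth, rose from 30.4, 16.7 and 25.8 to 87.3, 90.1 and 91.4 CPM (log2 1.89 ± 0.17, adjusted p = 0.000108). Ccnd1, cyclin D1, the partner of these kinases, fell instead, from 218, 176 and 205 CPM to 147, 137 and 146 CPM (log2 -0.48 ± 0.079, adjusted p = 0.00544). The inhibitor Cdkn1c fell from 1729, 1379.5 and 1663 to 1021, 1077 and 1135 CPM (log2 -0.56 ± 0.086, adjusted p = 0.00344). Trp53, the p53 gene, rose 4.13-fold, from 34.7, 41.0 and 32.9 CPM to 145, 152 and 152 CPM (adjusted p = 8.66e-07). Of 22 CDK inhibitors and genes of the p53 response, Trp53 itself included, 2 rose (Trp53 and Pmaip1), 2 fell (Gadd45g and Cdkn1c) and 18 were not called. Over all tested genes 2.95% rose and 4.57% fell. The rise of Trp53 was called in all 6 fits without 1 library and that of Pmaip1 in 2, and 1 rise was left without control 1, mutant 1, control 3 or mutant 3.

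Some cell cycle genes rose in the mutants. Of 32 tested, 6 rose, 0 fell and 26 were not called, with a median log2 change of 0.14, and in 22 of the 32 every mutant library was above every control, a pattern found in 2424 of the 16650 genes tested. Rrm2, a subunit of ribonucleotide reductase made in S phase, rose from 120.4, 125 and 127 to 156, 155 and 162 CPM (log2 0.34 ± 0.052, adjusted p = 0.00344). Ccne2, cyclin E2, rose from 11.1, 11.6 and 12.4 CPM to 17.2, 15.3 and 18.1 CPM (log2 0.53 ± 0.092, adjusted p = 0.0068). These 2 were called in all 6 fits without 1 library; the list had 2 rises without control 1 or mutant 1 and 3 without control 3, and 1 fall without mutant 3. Of 28 ribosome biogenesis genes and 30 nuclear genes of the respiratory chain, 0 were called in either direction by edgeR, 6 and 4 had an unadjusted p under 0.05 and DESeq2 called 2 and 0, with median log2 changes of 0.0013 and 0.07; without mutant 3, 1 of the ribosome biogenesis genes rose and 2 fell.

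Cartilage genes split into 2 groups. Of 24 tested, 7 rose and 6 fell, with a median log2 change of -0.015, and 6 rises and 4 falls were called in every fit without 1 library. The rises were Sox5, Acan, Col9a1, Col9a3, Sox9, Col2a1 and Lect1. Col9a1, a chain of type IX collagen, rose 5.25-fold, from 25.4, 11.6 and 18.1 CPM to 99.0, 97.5 and 92.2 CPM (log2 2.39 ± 0.22, adjusted p = 0.000109). Sox5, a partner of Sox9, rose from 3.34, 2.96 and 4.31 to 21.7, 21.2 and 25.8 CPM (log2 2.70 ± 0.14, adjusted p = 3.89e-06). Acan, aggrecan, the main proteoglycan of cartilage, rose from 13.6, 9.63 and 13.6 CPM to 47.0, 45.8 and 45.3 CPM (log2 1.91 ± 0.12, adjusted p = 1.14e-05). The members that fell were Col11a2, Col11a1, Chad, Ihh, Sox6 and Wwp2; the XI collagens and Ihh, Indian hedgehog, are also made in or near forming bone. Col11a1 fell from 675, 583 and 672 to 306, 326 and 343 CPM (log2 -0.99 ± 0.073, adjusted p = 2.77e-05), and Ihh from 10.9, 6.63 and 9.11 to 3.62, 4.43 and 4.12 CPM (log2 -1.13 ± 0.18, adjusted p = 0.00395). Col2a1, the defining collagen of cartilage, given after its values were seen, was present at 58.5, 45.4 and 66.4 CPM in the controls and 88.0, 82.2 and 90.7 CPM in the mutants (log2 0.62 ± 0.12, adjusted p = 0.0107).

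Members of other matrix families also changed. Of 41 matricellular and elastic fibre proteins, 9 fell and 1 rose, and 6 falls and 0 rises were called in every fit without 1 library, the rise of Thbs1 being lost without control 1, mutant 1 or mutant 2. Fbn1 and Fbn2, the fibrillins of microfibrils, fell by log2 values of 0.69 and 0.60 (adjusted p = 0.000482 and 0.0023). Wisp1, a matricellular protein of the CCN family, fell from 142, 114 and 146 to 77.4, 76.0 and 91.0 CPM (adjusted p = 0.00216). Among 16 small leucine-rich proteoglycans, 3 fell and 1 rose. Ogn, osteoglycin, fell from 442, 394 and 419 CPM to 255, 262 and 271 CPM (log2 -0.67 ± 0.06, adjusted p = 0.000106). The rise, of Lum, lumican, was small (log2 0.28 ± 0.058, adjusted p = 0.0172) and was lost without mutant 1 (adjusted p = 0.0906), mutant 2 (0.0674) or control 3 (0.075). Of 36 makers and carriers of heparan sulphate, the co-receptor of FGFs, 4 fell and 1 rose, and 2 rose without mutant 3. Gpc1, a glypican, fell from 304, 287 and 331 to 212, 218 and 236 CPM (log2 -0.47 ± 0.069, adjusted p = 0.00265), and Glce, which modifies the sugar chain, rose by a log2 value of 0.32 ± 0.055 (adjusted p = 0.00663).

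Of 40 extracellular proteases and inhibitors, 11 fell and 2 rose; the falls numbered 6 without mutant 1 and 7 without mutant 2 or control 3, and the rises 0 without mutant 2 and 1 without control 1, mutant 1 or control 3. Besides Mmp9, the falls included Adamts9 and Adamts17, matrix-cleaving metalloproteases (log2 -0.55 ± 0.058 and -0.70 ± 0.075, adjusted p = 0.000318 and 0.000357). Integrin genes gave 4 falls and 2 rises of 21; 2 falls were left without mutant 1 or control 3, and the rises numbered 1 without control 1, control 2 or mutant 2 and 0 without mutant 1. Itga10 and Itga11, chains of collagen receptors, fell in the mutants. Itga10 read 53.3, 50.3 and 53.3 CPM in the controls and 20.5, 23.2 and 18.3 CPM in the mutants (log2 -1.34 ± 0.087, adjusted p = 1.18e-05), and Itga11 32.3, 33.2 and 36.1 and 20.5, 23.3 and 22.0 CPM (log2 -0.63 ± 0.076, adjusted p = 0.000764). Of 39 cadherins and protocadherins, 7 fell and 3 rose. Fat3, a giant protocadherin, fell from 82.9, 75.9 and 85.4 CPM to 37.9, 37.2 and 40.7 CPM (log2 -1.07 ± 0.066, adjusted p = 9.81e-06), and its relative Fat1 by 1.57-fold (adjusted p = 0.00144).

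Members of the BMP and TGF-beta families changed in both directions, more often than the 2.95% and 4.57% of all tested genes that rose and fell. In the BMP pathway, 5 of 31 genes rose and 7 fell; 2 to 3 rises were left in each fit without 1 library, and 4 falls without mutant 1. Id4, a direct BMP target, rose from 33.0, 33.2 and 35.3 CPM to 55.9, 52.0 and 63.9 CPM (log2 0.76 ± 0.08, adjusted p = 0.000318). Chrdl1, a secreted BMP antagonist, and Bambi, a decoy receptor, fell (log2 -0.51 ± 0.08 and -0.49 ± 0.081, adjusted p = 0.00405 and 0.0053). Of 24 TGF-beta and activin genes, 3 rose and 6 fell, with 2 and 5 called in every fit without 1 library. Tgfbr2, the type II TGF-beta receptor, which palate growth requires, rose 4.36-fold, from 41.7, 35.4 and 29.0 CPM to 151, 147 and 165 CPM (log2 2.12 ± 0.11, adjusted p = 4.24e-06). Inhba, the activin A subunit, rose from 20.7, 26.3 and 25.7 to 42.0, 42.6 and 44.7 CPM (log2 0.83 ± 0.091, adjusted p = 0.000415), and Ltbp2, a latent TGF-beta binding protein, fell by 1.92-fold (adjusted p = 0.000127).

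Among 50 Wnt ligands, receptors and inhibitors, 5 rose and 5 fell. Single libraries moved both counts: rises numbered 2 without mutant 1 or mutant 2 and 3 without control 1, control 3 or mutant 3, and falls 2 without control 1, mutant 1, mutant 2 or control 3. Wnt5a, a ligand that guides growth of the anterior palate, rose from 48.5, 34.6 and 58.6 CPM to 169, 187 and 206 CPM (log2 1.99 ± 0.16, adjusted p = 4.92e-05). Rspo1, an R-spondin that strengthens Wnt signals, fell from 68.4, 67.0 and 65.0 to 42.1, 42.6 and 39.4 CPM (log2 -0.69 ± 0.058, adjusted p = 6.66e-05), and Lgr5, a receptor for R-spondins, rose from 22.7, 22.1 and 22.4 to 35.0, 33.1 and 38.2 CPM (log2 0.66 ± 0.071, adjusted p = 0.000351). Of 18 genes of the canonical Wnt response, 1 rose and 4 fell. The rise was that of Ctnnb1, the gene of beta-catenin, and was the largest change among the 635 genes with a mean log2 CPM above 8. It read 215, 232 and 267 CPM in the controls and 1907, 1818 and 1858 CPM in the mutants (log2 2.97 ± 0.084, adjusted p = 1.09e-07). The falls included Notum, a secreted Wnt inhibitor that is itself a Wnt target, from 11.9, 12.02 and 12.03 to 5.96, 7.88 and 6.96 CPM (log2 -0.79 ± 0.11, adjusted p = 0.00227).

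In the retinoic acid pathway, both called rises were enzymes that break retinoic acid down. Cyp26c1 rose from 12.3, 16.3 and 16.1 CPM to 23.2, 26.5 and 24.03 CPM and Cyp26a1 from 12.03, 15.1 and 13.4 CPM to 21.9, 22.5 and 18.96 CPM (log2 0.72 ± 0.11 and 0.64 ± 0.10, adjusted p = 0.00365 and 0.00479). The other 2 calls of this list of 22 were falls of Dhrs3, a retinaldehyde reductase (log2 -0.40 ± 0.069, adjusted p = 0.00734), and of Rbp4. The fall count was 4 without control 2 and 1 in each of the other 5 fits without 1 library. In the Hedgehog pathway, Hhip, an antagonist that is itself a pathway target, fell from 62.1, 56.2 and 64.1 to 40.7, 41.8 and 48.4 CPM (log2 -0.48 ± 0.08, adjusted p = 0.00594); with Ihh it made 2 falls of 18, against 4 without mutant 3, and the 1 rise was lost without mutant 1 or mutant 2. Of 25 IGF and insulin genes, 5 fell and 0 rose; the count was 3 without control 1, mutant 1 or control 3, 2 without mutant 2 and 9 without mutant 3, and 1 member rose without control 3. Igf2r, the clearance receptor of IGF2, fell from 371, 320.4 and 380.0 CPM to 249.4, 246 and 268 CPM (log2 -0.49 ± 0.073, adjusted p = 0.00305). In the Notch pathway, 3 of 24 genes fell, and none was called without control 1, mutant 1, mutant 2 or control 3, while 6 were called without control 2. Of 24 YAP and TEAD genes, 3 fell and 0 rose, and 5 fell without mutant 3; Amotl2, a YAP target, fell from 114, 105 and 122 to 72.2, 83.2 and 85.9 CPM (adjusted p = 0.00412).

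Guidance genes showed opposite changes among related ligands. Of 31 semaphorins, plexins and neuropilins, 3 rose and 5 fell, with 8 falls without mutant 3 and 2 without control 1, mutant 1, mutant 2 or control 3. Sema3b fell 2.69-fold, from 50.2, 48.5 and 46.8 CPM to 19.3, 17.9 and 16.9 CPM (log2 -1.43 ± 0.071, adjusted p = 2.43e-06). Sema3c and Sema3e rose instead (log2 0.46 ± 0.081 and 0.42 ± 0.075, adjusted p = 0.00808 and 0.0083). Of 21 ephrins and Eph receptors, 3 receptors rose and 1 fell, with 2 falls without mutant 3. Epha3 rose from 149, 151 and 161 to 313, 295 and 359 CPM and Epha8 fell from 7.17, 6.00 and 6.25 to 3.34, 3.02 and 2.54 CPM (log2 1.07 ± 0.077 and -1.12 ± 0.14, adjusted p = 2.33e-05 and 0.00102). Netrins, slits and their receptors gave 7 falls of 21 and 0 rises, with 3 falls without mutant 1 or control 3, 4 without mutant 2 and 1 rise without control 3. Unc5b, a netrin receptor, fell from 138, 119 and 139 CPM to 83.7, 88.8 and 90.7 CPM, and Robo2, a slit receptor, from 166, 139.5 and 159.5 CPM to 102, 109 and 117 CPM (adjusted p = 0.000713 and 0.00329).

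Some markers of other cell types of the tissue moved together. Of 16 endothelial markers, 10 fell and 0 rose, and their summed level was 793 to 847 CPM in the controls and 669.6 to 689.9 CPM in the mutants. In 12 of the 16 every mutant was below every control, a pattern found in 2299 of the 16650 genes tested, and DESeq2 called 11 falls. By edgeR's test 3 falls were left without control 1, mutant 2 or control 3 and 2 without mutant 1, against 7 without control 2 and 8 without mutant 3. Without control 1, mutant 2, control 3 or mutant 1 the calls over all genes were also fewer, at 666, 673, 630 and 526 in place of 1252. Tie1, an endothelial receptor, fell from 84.9, 79.9 and 84.6 CPM to 61.4, 67.7 and 65.7 CPM (log2 -0.36 ± 0.059, adjusted p = 0.00541). Smooth muscle and pericyte markers gave 5 falls and 1 rise of 14, with 3 falls left without control 1, mutant 1, mutant 2 or control 3 and the rise lost without control 2, mutant 1, mutant 2 or control 3. Myh11, the smooth muscle myosin, fell from 13.7, 12.8 and 13.4 to 8.62, 8.79 and 8.44 CPM (log2 -0.62 ± 0.084, adjusted p = 0.0016). Of 21 macrophage and white blood cell markers, 4 fell; the count was 2 without mutant 2 and 0 without control 3, and the sum was 224 to 238 CPM in the controls and 161 to 221 CPM in the mutants.

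A few epithelial markers rose. Of 24 markers of oral and basal epithelium, 3 rose (Sfn, Epcam and Perp) and 0 fell, and their summed level was 1899.7, 3058 and 2736 CPM in controls 1, 2 and 3 and 3087 to 3387 CPM in the mutants. Control 1 was the lowest library, and control 2 came just under the lowest mutant. The count of rises rested on single libraries, at 11 without control 2, 1 without mutant 2 or mutant 3 and 0 without mutant 1 or control 3, so Sfn, Epcam and Perp were each lost in some of these fits. Bpifa1, a secreted protein of nasal epithelium, rose from 10.8, 14.4 and 12.2 to 29.4, 20.3 and 27.4 CPM (log2 1.04 ± 0.15, adjusted p = 0.00203), the only call among 15 nasal and ciliated markers, where 4 were called without control 2. Among 10 tooth germ markers, Dmp1 and Ambn, an enamel protein, fell, and Ambn read 31.8, 36.5 and 30.7 CPM against 18.9, 22.4 and 18.2 CPM (log2 -0.73 ± 0.098, adjusted p = 0.00146). Of 8 adipocyte markers 4 fell, with 2 left without control 1. Car3, a carbonic anhydrase, led them, from 73.5, 71.6 and 69.9 to 22.1, 26.3 and 22.2 CPM (log2 -1.61 ± 0.077, adjusted p = 2.4e-06). Neuronal markers gave 0 calls of 17 by edgeR (7 lower at an unadjusted p under 0.05, 2 falls by DESeq2), with sums of 160.0 to 247 CPM in the controls and 158 to 174 CPM in the mutants, but 7 fell without control 2 and 1 without mutant 3; erythroid markers gave 0 calls of 9 by edgeR (1 higher at an unadjusted p under 0.05, 1 rise by DESeq2). The part of vessels and epithelium in the bone results was not tested; the bone matrix genes fell by a median log2 value of 1.41 and the endothelial genes by 0.29.

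Genes that read out the sex of the embryos differed between the groups. Xist, the RNA of the inactive X chromosome, read 873, 714 and 784 CPM in the controls and 449, 528 and 501 CPM in the mutants (log2 -0.68 ± 0.085, adjusted p = 0.000988). The Y-linked gene Eif2s3y rose from 9.71, 17.9 and 13.8 CPM to 28.7, 24.5 and 26.6 CPM (log2 0.94 ± 0.18, adjusted p = 0.0113), and all 4 tested genes of the Y chromosome were called higher, with 1 of the 4 markers called without mutant 1 or mutant 2. Both kinds of message were present in every library, with more Y-linked message in the mutants and more Xist in the controls. On the X chromosome, 14 of 593 genes rose and 22 fell, 6.07% in all, against 7.57% of autosomal genes. Of the 1252 calls, 1212 were of genes not placed on the X or Y chromosome, a count made without a new fit. The bone genes named above are autosomal except Phex. The part of embryo sex in the single-gene results was not tested.

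Some called genes had 1 genotype at E14.5 apart from all other libraries when the 12 were compared. For 201 of the 491 rises, the E14.5 controls lay below all other 9 libraries, the E16.5 controls included, and for 189 the E14.5 mutants lay above all others. For 511 of the 761 falls the E14.5 controls were above all other 9 libraries, and for 149 the E14.5 mutants were below them. Over all 16650 genes tested, the E14.5 controls were below all others in 959 (5.76%) and above them in 1282 (7.7%), and the E14.5 mutants were above all others in 856 (5.14%) and below them in 537 (3.23%). The called genes had been chosen for a difference between these same controls and mutants, so the counts are a description. Of the 2424 tested genes with every E14.5 mutant above every E14.5 control, the controls were below all others in 930 and the mutants above them in 829. Of the 2299 with every mutant below every control, the controls were above all others in 1234 and the mutants below them in 528. Levels at E16.5 are scaled over all 12 libraries, on which scale the E14.5 levels are 0.982 to 0.993 times those given. Ctnnb1 is the clearest case of controls that lay low: the E16.5 controls read 1846, 1866 and 1856 CPM and the E16.5 mutants 1567, 1806 and 1692 CPM, so that the E14.5 controls, at 215 to 267 CPM, stood alone. Foxp1 read 107, 107 and 142 and 78.8, 98.6 and 125 CPM in the E16.5 controls and mutants, against 13.2, 7.77 and 12.1 CPM in the E14.5 controls and 66.8, 69.9 and 83.5 CPM in the E14.5 mutants. Tgfbr2 had the same order, at 190.5, 193 and 209.6 and 198, 195 and 213 CPM at E16.5. Prrx1 was different, with E16.5 controls at 414, 408 and 501 CPM and E16.5 mutants at 1102, 1880.2 and 1961 CPM, so the mutants were higher at both ages. Asxl2 was low in the mutants of both ages, at 13.5, 20.0 and 18.2 CPM in the E16.5 mutants and 73.1, 67.6 and 78.9 CPM in the E16.5 controls.

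**Figure D4:**
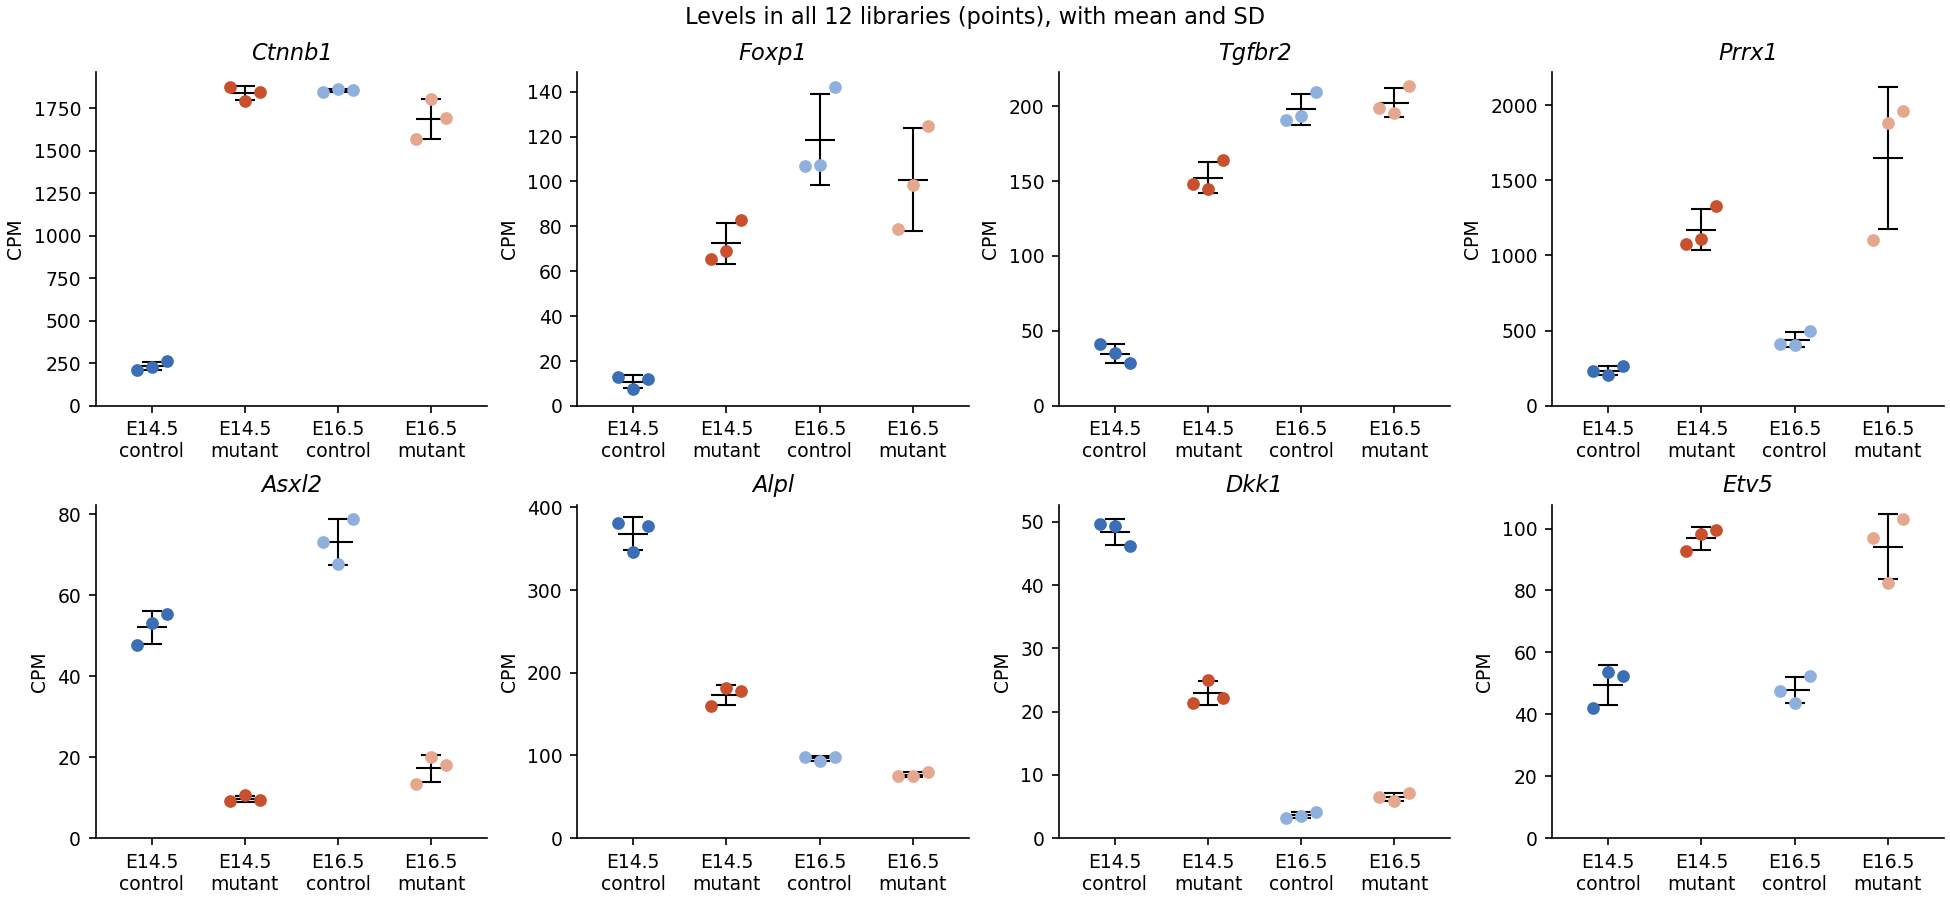
Each panel shows 1 gene in all 12 libraries, with CPM scaled over the 12 libraries on the y axis from 0, points for libraries and bars for mean and SD. The E14.5 controls stand alone for Ctnnb1, Foxp1 and Tgfbr2 on the low side and for Alpl and Dkk1 on the high side, while Prrx1, Asxl2 and Etv5 separate the genotypes at both ages.

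The E14.5 effect was then set beside the effect at E16.5, taken from 1 fit of all 12 libraries in which 5755 of 17550 genes (32.8%) were called at E16.5 and 3921 (22.3%) for the difference of the effect between ages. Of the 491 rises at E14.5, 218 (44.4%) also rose at E16.5 and 52 fell; these 218 are 8.42% of the genes that rose at E16.5. Of the 761 falls, 226 (29.7%) also fell and 143 rose, and the 226 are 7.14% of the genes that fell at E16.5. The difference between ages was called for 211 of the rises and 407 of the falls. The E16.5 mutants differ among themselves: the summed level of 10 retinal genes was 166 and 97.7 CPM in E16.5 mutants 1 and 3, against 17.9 CPM in mutant 2, 38.6 to 42.4 CPM in the E16.5 controls and 8.31 to 14.3 CPM at E14.5. Without those 2 libraries only E16.5 mutant 2 stays in its group, so from that fit only sizes of change are given below.

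Several bone genes fell further at E16.5. Ibsp changed by -3.29 (log2) at E16.5 against -2.18 at E14.5, a called difference (adjusted p = 0.000571). Without E16.5 mutants 1 and 3 the E16.5 change of Ibsp was -3.26 (log2). Sp7, Runx2, Col1a2, Lox and Creb3l1 likewise fell more at E16.5, with log2 changes of -2.50, -2.95, -2.81, -2.57 and -2.88, and the difference was called for each (adjusted p = 0.00247, 4.87e-05, 0.00111, 9.67e-05 and 0.00151). Dmp1 fell too, with a log2 change of -3.05 at E16.5, and its difference was not called (adjusted p = 0.414). In the opposite direction, Alpl fell by only 0.33 at E16.5 while Phex had a log2 change of -0.015 that did not pass the test, and their differences were called (adjusted p = 0.000121 and 0.000178). Their E14.5 controls were far above the E16.5 controls, which read 98.7, 93.3 and 98.4 CPM for Alpl and 5.34, 7.56 and 7.61 CPM for Phex. Of the FGF feedback genes, Spry4 rose by 2.96 at E16.5, more than at E14.5 (adjusted p of the difference 0.00106), and Etv5 by 0.98 (difference adjusted p = 0.977). Without E16.5 mutants 1 and 3 the E16.5 rise of Spry4 was 2.57 (log2). Etv4, which rose at E14.5, had a log2 change of -0.47 at E16.5 that did not pass the test (difference adjusted p = 0.00675). Without E16.5 mutants 1 and 3 the E16.5 change of Etv4 was 0.058 (log2) and its difference between ages was -0.70.

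Other genes turned direction with age. Dkk1 fell at E14.5 and rose by 0.84 at E16.5, where its level was far lower, at 3.22, 3.51 and 4.15 CPM in the controls and 6.57, 5.83 and 7.06 CPM in the mutants (difference adjusted p = 6.35e-06). Tcf7 fell at E14.5 and rose by 0.59 at E16.5 (difference adjusted p = 3.41e-05). Pcolce2 and Fkbp10 fell at E14.5 and rose by 1.13 and 0.26 at E16.5 (difference adjusted p = 8.46e-05 and 2.48e-05). Without E16.5 mutants 1 and 3 the E16.5 changes of Pcolce2 and Fkbp10 were 0.69 and 0.27 (log2). Cldn2, a claudin of leaky epithelia, rose at E14.5 from 0.331, 0.267 and 0.287 to 1.44, 1.25 and 1.35 CPM and fell at E16.5, where it read 21.3, 23.1 and 21.6 CPM in the controls and 11.1, 9.72 and 9.79 CPM in the mutants (difference adjusted p = 4.63e-07). Chrnb4, a subunit of the nicotinic acetylcholine receptor, fell at E14.5 from 3.34, 2.52 and 3.69 to 1.20, 0.886 and 1.34 CPM and was higher in the E16.5 mutants (log2 1.65). Without E16.5 mutants 1 and 3 the E16.5 change of Chrnb4 was only 0.46 (log2). The endothelial receptor Tie1 fell at E14.5 and rose by 0.56 at E16.5 (difference adjusted p = 2.32e-05), and Xist and Eif2s3y turned too, with E16.5 changes of 1.15 and -1.15 (difference adjusted p = 1.35e-05 and 0.000128).

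**Figure D5:**
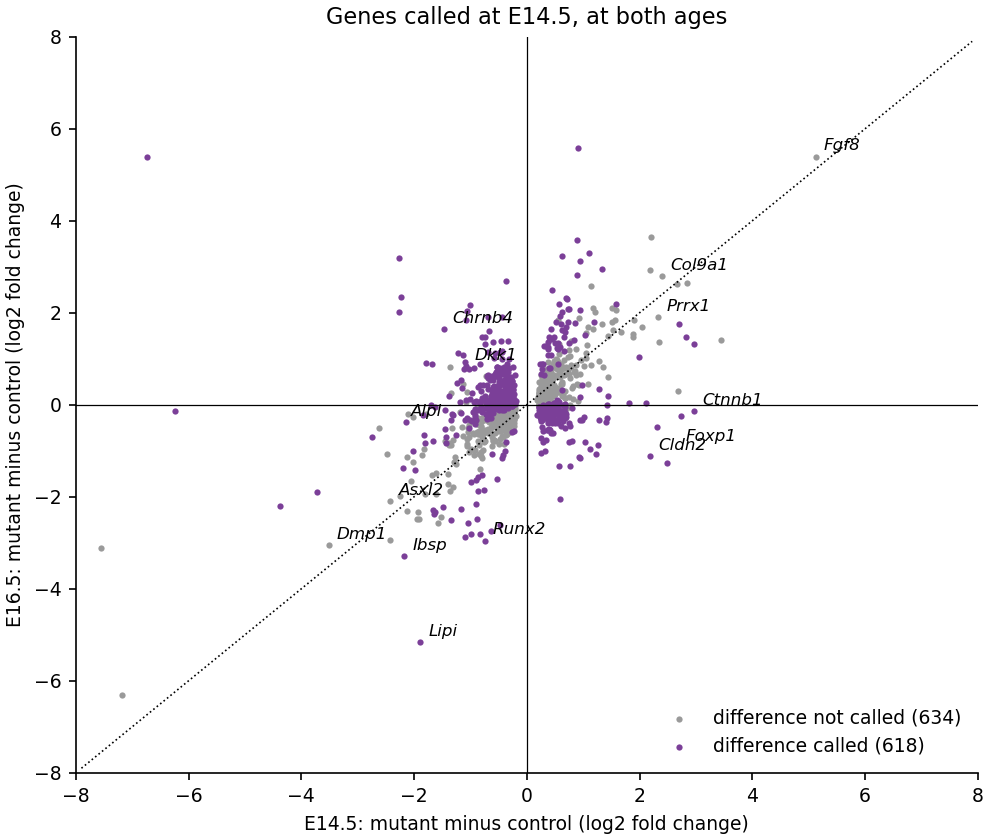
Each point is 1 of the 1252 genes called at E14.5, with its log2 fold change at E14.5 on the x axis and at E16.5 on the y axis; purple points differ between ages by the test and the dotted line marks equal change. Fgf8, Prrx1, Dmp1 and Asxl2 lie near the line, while Ctnnb1 and Foxp1 lie near 0 at E16.5.

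Promoters of the genes that changed at least 2-fold had a lower median CpG content than those of all tested genes. Over the 300 bases around the start in the RefSeq table, the median ratio of observed to expected CpG was 0.725 for 12937 tested genes with an entry, 0.499 for 49 genes that rose at least 2-fold, 0.408 for 81 that fell at least 2-fold and 0.334 for 14 bone matrix genes. The letters CCGGAAG, a site of ETS factors, or their reverse complement, were found in 15.6% of the promoters of tested genes. They were found in 13.1% of the promoters of genes that rose, in 6.03% of those that fell, in 0 of the 49 that rose at least 2-fold and in 2 of the 81 that fell at least 2-fold. TGTGGT or its reverse complement was found in 12.7% of tested genes, 12.3% of those that rose, 11.6% of those that fell, 8 of the 49 that rose and 11 of the 81 that fell at least 2-fold, and 4 of the 14 bone matrix genes. TGACTCA, a site of AP-1 factors, or its reverse complement was found in 3.73% of tested genes, 5.07% of those that rose, 3.79% of those that fell, 7 of the 49 that rose at least 2-fold and 4 of the 81 that fell at least 2-fold. These shares are descriptions, and a match is neither a bound site nor a cause.

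The authors' deposited table for the same comparison gives an adjusted p for 15403 genes, of which 2058 are under 0.05, 885 higher and 1173 lower. The authors' deposited table shares 1235 of the 1252 calls made here with the same direction, has 0 in the opposite direction, leaves out 17 and adds 823.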

How the data were processed

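RNA sequencing libraries of mouse anterior palate, 3 per genotype and age, were read as the authors' deposited raw counts per gene symbol, 24391 genes per library. The submitters' processing notes name HISAT2, featureCounts, DESeq2 and mm9 without roles; strand settings are not given in the sources used here. The authors' deposited table of log2 fold changes and adjusted p-values was used only for the comparison named as such. In the whole-series tables, 24 per-sample columns that match no library here stayed out of use.

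Counts were scaled by TMM factors, genes were kept by filterByExpr (16650) and genotypes were compared with edgeR 4.0.16 (quasi-likelihood test, Benjamini-Hochberg adjustment, called under 0.05) in R 4.3.3. CPM values in the text are scaled over the 6 E14.5 libraries, and E16.5 values and the difference between ages come from 1 fit of all 12. Alternatives used DESeq2 1.42.0, limma 3.58.1, other scaling and filters, covariates, a minimum fold and left-out libraries. The fit was checked on simulated counts. Symbols turned into dates (27) were not read as genes. Promoters are from RefSeq (GRCm38.p6), with an entry for 12937 tested genes.

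Gene lists and comparisons were chosen with earlier results of these data known. Named were Fgf8 and Shox2, the 15 largest rises and falls without overlap between the groups and with log2 CPM averaging 1 or more, the 5 most abundant calls each way, up to 4 called members per list (or 2 tested members where none was called) and genes that differed between ages, up to 6 with opposite calls and up to 5 each way called at E14.5 alone; not all of them are printed. Runx2, Dlx5, Dspp, Twist1, Sparcl1, Pkd2, Col2a1 and members named to complete a list were picked after their values were seen.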

Additional observations from a re-analysis of the deposited data

Results flagged for a closer look

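The genotype effect of 81 of the genes named in the text differed between E14.5 and E16.5 by the test of the difference itself (edgeR's quasi-likelihood test of the interaction in the fit of all 12 libraries, adjusted p under 0.05, 3 libraries per group). Each value below is the log2 effect at E16.5 minus that at E14.5, and the difference was called for 22.3% of all genes tested in that fit. Of the 81, 28 had risen at E14.5 and 53 had fallen. Without E16.5 mutants 1 and 3, whose retinal genes stood apart, all 81 kept the sign of the difference. That fit left 1 library in the E16.5 mutant group, so only signs and sizes are given from it.

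Without the same libraries the difference moved by more than 1.5 times for 14 of the 81. It became 2.29 for Mpo, 0.83 for Chad, -0.70 for Etv4, -0.48 for Epcam, -0.32 for Cyp26a1, -1.13 for Creb3l1 and -0.29 for Col11a1. It became -0.33 for Sfn, 0.41 for Dlx6, 0.19 for Ccnd1, 0.46 for Fat3, -0.29 for Sc5d, 1.93 for Chrnb4 and 0.29 for Fgf13.

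Bone genes that fell at E14.5 and were lower still, relative to controls, at E16.5 had differences of -1.16 for Sp7, -2.21 for Runx2, -1.60 for Dlx5, -1.11 for Ibsp and -0.63 for Ifitm5. Collagen and secretion genes of the same kind gave -1.83 for Col1a2, -0.69 for Col11a1, -1.53 for Lox and -1.78 for Creb3l1. Further genes with a larger loss at E16.5 gave -0.71 for Phospho1, -1.09 for Mmp9, -2.10 for Fgf18, -2.13 for Hhip, -3.27 for Lipi and -0.44 for Myh11.

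Bone genes whose fall was smaller or turned at E16.5 gave 0.76 for Alpl, 1.69 for Phex, 1.84 for Spp1, 0.75 for Sparc, 1.24 for Dlx3, 0.75 for Dlx6, 1.27 for Tcf7 and 1.92 for Dkk1. In the collagen, fibre and adhesion genes that fell, the differences were 2.35 for Pcolce2, 0.86 for Fkbp10, 0.56 for Loxl4, 0.75 for Fbn1, 0.84 for Fbn2 and 1.63 for Chad. Adhesion receptors and proteases added 1.01 for Itga10, 0.54 for Fat1, 1.18 for Fat3, 0.74 for Adamts9, 0.40 for Adamts17 and 0.80 for Adgrd1. Signalling genes that fell at E14.5 gave 0.82 for Bambi, 0.46 for Chrdl1, 0.68 for Notum, 0.65 for Igf2r, 1.62 for Ccnd1, 0.59 for Amotl2, 0.45 for Gpc1 and 0.64 for Fgf13. The remaining falls that were smaller or turned at E16.5 gave 1.003 for Unc5b, 0.60 for Sema3b, 0.92 for Tie1, 1.14 for Klf2, 1.002 for Hrc, 2.06 for Ambn, 2.60 for Egr3, 4.29 for Mpo, 3.13 for Chrnb4 and 1.84 for Xist.

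Among the rises, FGF feedback genes and their carrier gave 1.63 for Spry4, 0.35 for Spry1, 0.60 for Shisa2, -1.23 for Etv4 and -1.18 for Fgfbp1. Transcription factors and the cell cycle genes Cdk6 and Ccne2 rose less at E16.5 or did not rise there, with -2.98 for Foxp1, -2.79 for Foxp2, -1.35 for Tbx3, -0.95 for Sox5, -1.65 for Cdk6 and -0.42 for Ccne2. For receptors, ligands and enzymes that rose at E14.5 the differences were -3.10 for Ctnnb1, -2.09 for Tgfbr2, 0.59 for Inhba, -0.96 for Wnt5a, 1.22 for Sema3e, 1.08 for Cyp26c1 and -0.64 for Cyp26a1. Cartilage collagens gave 2.63 for Col2a1 and 1.62 for Col9a3, and epithelial genes -0.91 for Perp, -0.81 for Epcam, -0.73 for Sfn, -1.85 for Bpifa1 and -3.30 for Cldn2. The cholesterol synthesis genes gave -0.53 for Sqle and -0.44 for Sc5d. The Y-linked gene gave -2.09 for Eif2s3y.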

How the results depend on the processing

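Against 1252 genes called at E14.5, DESeq2 called 2132, a term for the libraries numbered 3 gave 2938 and a test against a minimum 1.5-fold change gave 135. With limma-voom, other scaling factors, other filters and all 12 libraries in the fit, 950 to 1380 were called. Leaving out 1 E14.5 library gave 526 to 1412. The E14.5 libraries numbered 1 and 2 alone, chosen after seeing the data, gave 845. Without E16.5 mutants 1 and 3, 2698 genes were called at E16.5 in place of 5755 and 2017 for the difference between ages in place of 3921; leaving out 1 of the 12 libraries gave 4430 to 6197 and 2942 to 4723. The cause of these moves was not tested. With the replicate block, 3155 genes were called at E14.5, 7768 at E16.5 and 6055 for the difference. The labels' numbers did not pair all the samples. Deviations of same-numbered control and mutant libraries correlated at -0.0013, 0.035 and 0.20 over 16650 genes. Over the 13154 genes above a log2 CPM of 1 they correlated at 0.088, 0.14 and 0.61. The pair numbered 1 stayed under 0.1 in both, and mutant 1 correlated better with control 2 than with control 1. The pair numbered 3 had the highest correlation of all pairs in both, and the main fit has no term for what those 2 libraries share. With the block, 20 of 32 cell cycle genes rose in place of 6, and 7 of 30 respiratory chain genes in place of 0. Each of the 146 genes named in the text kept its direction under every alternative run for it. Most were named for a called change in these same libraries, so a reversed direction was unlikely from the start. Among the 146, the most calls were lost under the minimum 1.5-fold change (79), in the fit of all 12 libraries (24), in the libraries numbered 1 and 2 alone (23) and without mutant 1 (21). Changes under 1.5-fold rest on 3 libraries per group, and genes at or under a log2 CPM of 0 were called in 1.30% of cases; depth was not varied.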

Other observations

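Some immediate early genes were lower in the mutants. Of 23 immediate early and heat shock genes tested, 5 fell (Klf4, Klf2, Jund, Zfp36 and Fos) and 0 rose, with a median log2 change of -0.29. The count was 3 without control 2 and 2 without mutant 1, control 3 or mutant 3. Klf4, a Krüppel-like transcription factor, read 139, 122 and 139.7 CPM in the controls and 71.0, 74.4 and 76.1 CPM in the mutants (log2 -0.86 ± 0.065, edgeR adjusted p = 3.41e-05). Klf2, its relative in endothelium, read 24.6, 23.1 and 26.6 CPM against 10.8, 13.6 and 12.4 CPM (log2 -1.01 ± 0.098, adjusted p = 0.00017). Endothelial markers also fell, 10 of them, and their part in the change of Klf2 was not tested.

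Of 23 genes of cholesterol synthesis, 2 rose (Sqle and Sc5d) and 0 fell, and the rises numbered 0 without control 1 or mutant 2 and 1 without control 3 or mutant 3. Of 23 genes of glycolysis and hypoxia, 1 rose and 2 fell, with 1 fall without control 1, control 2 or control 3 and 0 without mutant 1 or mutant 2. The rise was that of Gapdh, a glycolytic enzyme often used as a reference gene, from 46.9, 44.2 and 42.1 CPM to 65.1, 78.9 and 61.7 CPM (log2 0.63 ± 0.091, adjusted p = 0.00258). The median log2 change of the glycolysis list was -0.073.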
